A study of Mus musculus with 6 samples.

Results

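G-protein coupled receptors are membrane-spanning proteins through which hormones, peptides, lipids, amines, odorants and light act on cells. A receptor bound by its ligand makes the alpha subunit of a G protein exchange GDP for GTP, after which the alpha subunit and the beta-gamma pair act on enzymes and channels. RGS proteins (regulators of G-protein signaling) speed the return to the GDP form, and receptor kinases and arrestins silence the receptor. In the choroid plexus, which secretes the cerebrospinal fluid, receptors of this kind are known to adjust secretion in the epithelium and tone in the vessels of the stroma. The genes of this class were examined here in lateral ventricular choroid plexus of embryonic day 15 (E15) and adult Swiss Webster mice. They were found by their ontology annotation in the deposited tables, as clusters whose biological process or molecular function text contained the term "G-protein coupled receptor". Frizzled genes were left out, as were clusters that also carried any of 6 terms for immune or inflammatory response, cell adhesion, angiogenesis, growth factors or hormones. This gave 79 of the 3956 transcript clusters in the joined tables. On these arrays a gene is read by many probes along its exons, grouped into what is called a transcript cluster.

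The plexus was taken whole, so that epithelium, vessels and stroma were all present, and was pooled within each age from healthy animals. Per the labels, each of the 3 E15 pools held tissue of 30 embryos of mixed sex and each of the 3 adult pools held tissue of 10 females, and each pool was hybridised to its own Affymetrix exon array after amplification of the RNA. The study's supplement gives other pool sizes and calls the embryos unsexed, so the number of animals in a pool is not settled. Age and sex cannot be told apart in this design for any gene. The authors merged the arrays of an age into 1 normalized log2 value, centred for each cluster, so the values carry the contrast between the ages and neither an absolute level nor a spread between arrays. Differences below are adult less E15 in log2 units, and folds are their linear equivalents, always given above 1 with the age that was higher. No error or p-value of any gene can be computed from merged values, and with so few arrays per age their precision is limited. In whole tissue, fewer cells of a type and less RNA per cell cannot be told apart.

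Of the 79 members, 37 were in the authors' gene-level table, which holds only clusters at least 2-fold different with a corrected p of at most 0.05, and 42 were only in their splicing index table, which lists clusters by exon use and for the most part below 2-fold. In all, 38 members differed at least 2-fold by the merged values (48.1%), against 47.3% of all clusters in the joined tables. At least 2-fold higher at E15 were 23 members (29.1%, all clusters 24.4%) and at least 2-fold higher in adult 15 (19.0%, all clusters 22.9%). Of the 37 gene-level members, 22 had their higher value at E15 (59.5%), against 51.2% of all clusters in that table. The median difference of the members was -0.31, and that of all clusters -0.16. The shares of the members are near those of all clusters. The individual differences were wide, from -2.97 for Calcrl to 3.26 for Rrh.

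**Figure D1:**
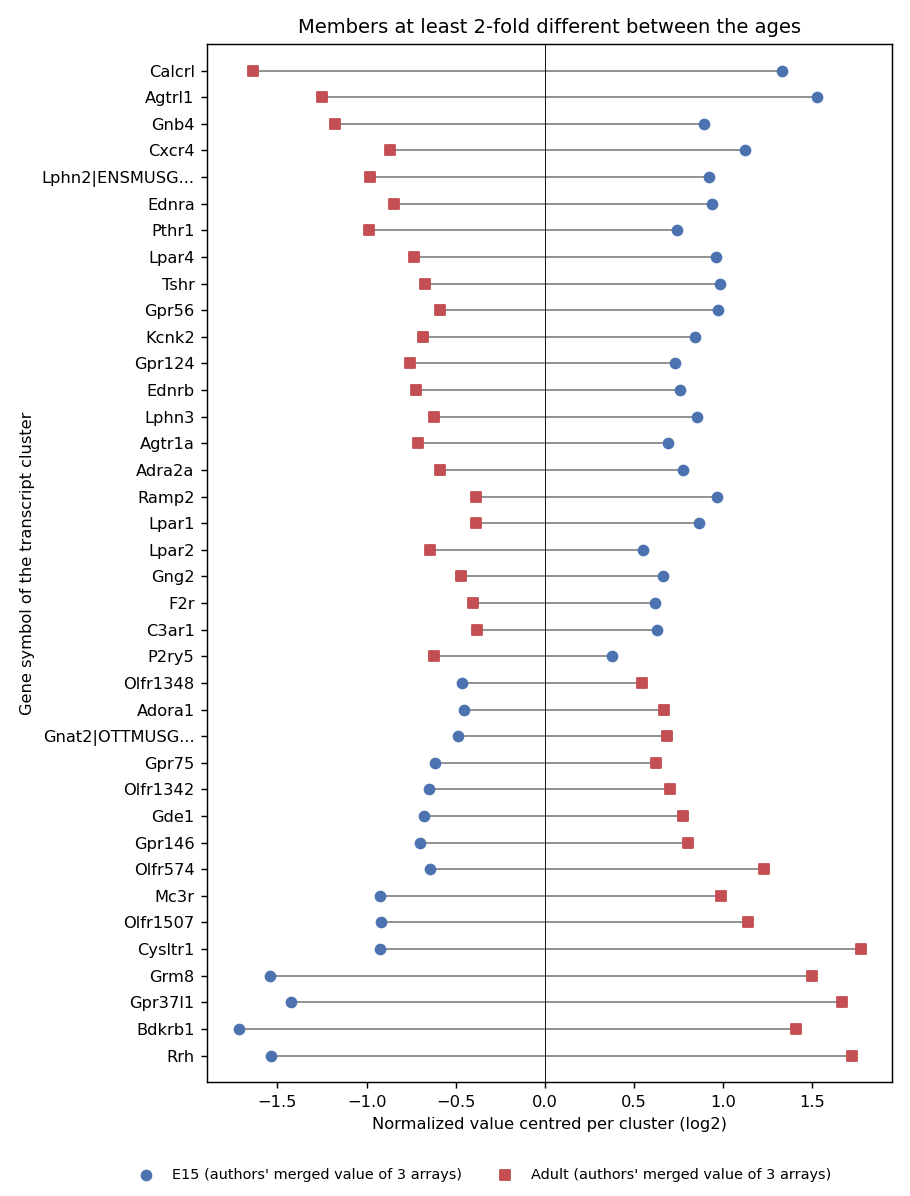
Normalized log2 values, centred per cluster, of the 38 members at least 2-fold different between the ages (circles E15, squares adult, each the authors' merged value of 3 arrays; the line joins the ages of a cluster). The 23 clusters at the top were higher at E15, led by Calcrl and Agtrl1, and the 15 at the bottom were higher in adult, led by Rrh and Bdkrb1.

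Past 3-fold the members were spread over both ages, 9 at E15 and 8 in adult. Folds of at least 4 were found for 6 members in adult (7.59%, all clusters 5.03%) and for 3 at E15 (3.80%, all clusters 5.84%). Folds of at least 8 were found for 4 members in adult, Rrh, Bdkrb1, Gpr37l1 and Grm8 (5.06%, all clusters 1.42%), and for 0 at E15 (all clusters 1.44%). The median fold was 3.67 for the 15 members higher in adult (all such clusters 2.67) and 2.80 for the 23 higher at E15 (all such clusters 2.75). The members were sorted into 10 roles by symbol family and textbook ligand. The 45 receptors outside the opsin, olfactory and taste role held 19 clusters at least 2-fold higher at E15 (42.2%) and 8 at least 2-fold higher in adult (17.8%), beside 24.4% and 22.9% of all clusters. In the opsin, olfactory and taste role these counts were 0 and 5 of 12 (0% and 41.7%). This split was not planned, and it sets apart a role with no cluster past 2-fold at E15. Its shares are therefore only described.

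**Figure D2:**
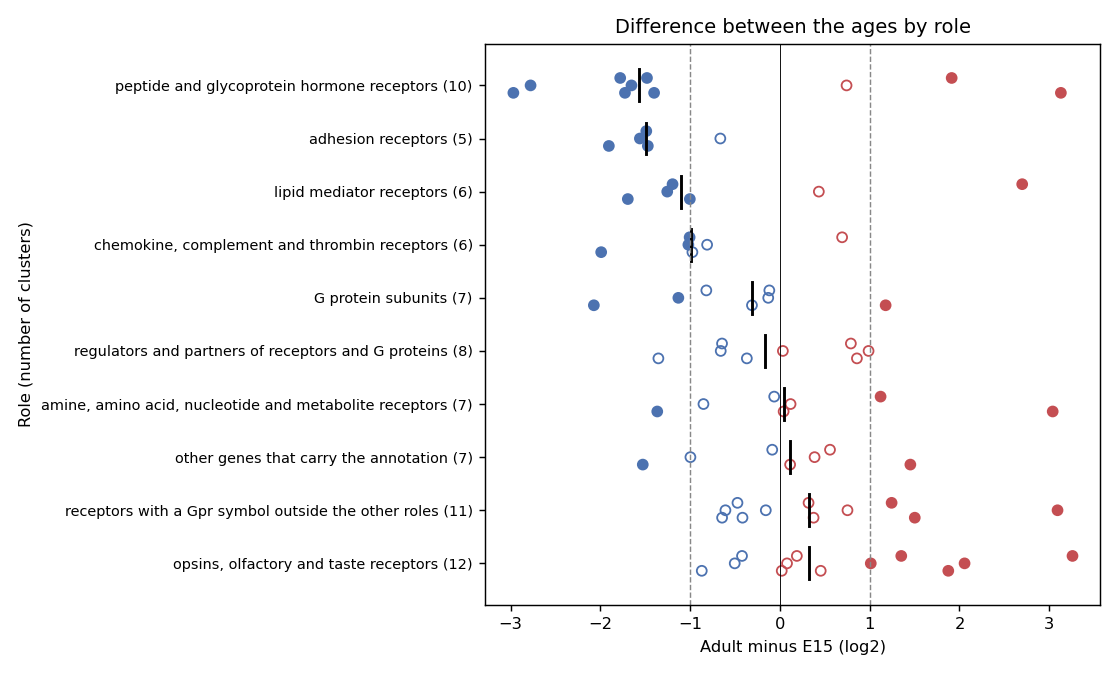
Difference between the ages (adult minus E15, log2) of all 79 members by role, with 1 point for each transcript cluster. Filled points were in the gene-level table and open points only in the splicing index table, blue points were higher at E15 and red points higher in adult, the black bar is the median of the role and the dashed lines mark 2-fold. Peptide hormone, adhesion and lipid mediator receptors lay mostly left of the 2-fold line, and all 5 opsin or olfactory clusters past 2-fold lay to the right.

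The role of receptors for peptide and glycoprotein hormones held 10 clusters. Of these, 9 were in the gene-level table, which holds only clusters at least 2-fold different, so their share past 2-fold was set by that selection. At least 2-fold higher at E15 were 7 (all clusters 24.4%), and 2 were at least 2-fold higher in adult (all clusters 22.9%). Galr3, a galanin receptor, stayed below 2-fold with a difference of 0.74. The median difference of the role was -1.57. Crhr2, a receptor of corticotropin-releasing hormone and urocortins, was among the 11 clusters left out by the rule, with a fold of 8.99 toward adult. The largest difference toward E15 among those left out was that of Edg3, with a fold of 4.41. With those 11 clusters kept there were 90 members, 30 at least 2-fold higher at E15 and 18 in adult. Calcrl, the receptor for adrenomedullin and calcitonin gene-related peptide (cluster 6888296), was at -1.64 in adult and 1.33 at E15. Its difference of -2.97, a fold of 7.83, was the largest toward E15 among all members. Ramp2, the partner protein with which Calcrl forms the adrenomedullin receptor, was only in the splicing index table, at -0.38 in adult and 0.97 at E15, and its difference of -1.35 made it the only one of the 42 members of that kind past 2-fold. Ramp2 is not in the gene-level table although its merged values differ over 2-fold, so unlike Calcrl it did not pass the authors' gene-level selection, and which step removed it is not known.

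Agtrl1, the apelin receptor now called Aplnr, was at -1.25 in adult and 1.53 at E15, a fold of 6.85. The endothelin receptors were both higher at E15. Ednra had -0.84 in adult and 0.94 at E15 (fold 3.43), and Ednrb had -0.72 and 0.76 (fold 2.79). Agtr1a, the type 1a receptor of angiotensin II, which constricts vessels as endothelin does, was at -0.71 in adult and 0.69 at E15, a fold of 2.64. Receptors that raise cyclic AMP for parathyroid hormone and for thyroid stimulating hormone were in the same group. Pthr1 was at -0.98 in adult and 0.74 at E15 (fold 3.31), and Tshr was at -0.67 and 0.98 (fold 3.15).

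Against these, a pair of peptide receptors were higher in adult. Bdkrb1, the bradykinin B1 receptor, known to be induced by tissue injury and cytokines, was at 1.41 in adult and -1.72 at E15, a difference of 3.13 and a fold of 8.75. Mc3r, a melanocortin receptor that signals through Gs, was at 0.99 in adult and -0.93 at E15, a fold of 3.77.

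The 5 adhesion receptors, large proteins with long extracellular parts that bind matrix or neighbouring cells, were all higher at E15 (all clusters 54.1%). At least 2-fold higher were 4 of them (all clusters 24.4%), the same 4 that were in the gene-level table. Lphn2, a latrophilin whose cluster carries a predicted gene as well, was at -0.98 in adult and 0.92 at E15 (fold 3.75). Lphn3 of the same family was at -0.62 and 0.85 (fold 2.77). Gpr56, now Adgrg1, which is known for its part in the formation of the cortex, was at -0.59 and 0.97 (fold 2.95), and Gpr124, now Adgra2, which is needed for vessel growth in the embryonic brain, was at -0.76 and 0.73 (fold 2.80). Gpr126 was below 2-fold, with a difference of -0.66. Clusters annotated with cell adhesion or angiogenesis had been left out by the rule, so the adhesion receptors shown are not the whole family.

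Among receptors for lipid mediators, the 4 members for lysophosphatidic acid were all at least 2-fold higher at E15 (all clusters 24.4%). All 4 were in the gene-level table, which holds only clusters at least 2-fold different, so passing 2-fold was set by that selection. Lpar4 was at -0.73 in adult and 0.96 at E15 (fold 3.24), Lpar1 at -0.39 and 0.87 (fold 2.39), and Lpar2 at -0.65 and 0.55 (fold 2.29). P2ry5, which the files name as a purinergic receptor and which is now Lpar6, was at the edge of the threshold with -0.62 and 0.38, a fold of 2.00, and with each age re-centred on its median its difference of -0.85 was below 2-fold. The receptor for cysteinyl leukotrienes, Cysltr1, went the other way. It was at 1.78 in adult and -0.92 at E15, a difference of 2.70 and a fold of 6.49. Ptger4, a prostaglandin E receptor, had a difference of 0.43, below 2-fold.

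Of the 6 receptors for chemokines, complement and thrombin, 3 were at least 2-fold higher at E15 (all clusters 24.4%). In adult the count was 0 (all clusters 22.9%), and 6 clusters are too few to read a share from. Cxcr4, which guides migrating progenitors and growing vessels, was at -0.87 in adult and 1.12 at E15, a fold of 3.97. Cxcr7, the other receptor of the Cxcr4 ligand, now called Ackr3, was only in the splicing index table, just below 2-fold, with a difference of -0.97. F2r, the thrombin receptor, and C3ar1, the receptor of complement C3a on myeloid cells, were near the threshold. F2r was at -0.40 in adult and 0.62 at E15, a fold of 2.03, and C3ar1 was at -0.38 and 0.63, a fold of 2.01. With each age re-centred on its median over all clusters, which adds 0.15 to every difference, F2r (-0.87) and C3ar1 (-0.85) fell below 2-fold. Cx3cr1, the fractalkine receptor of microglia and macrophages, had a difference of -0.81, and the scavenging receptor Ccrl1 had 0.69, both below 2-fold.

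Receptors for amines, amino acids, nucleotides and metabolites had no common direction. The 7 clusters had a median difference of 0.04. At least 2-fold higher at E15 was 1 (all clusters 24.4%), and 2 were at least 2-fold higher in adult (all clusters 22.9%). Adra2a, an alpha2 adrenergic receptor that inhibits adenylyl cyclase, was at -0.59 in adult and 0.78 at E15 (fold 2.58). Grm8, a metabotropic glutamate receptor of presynaptic endings, was at 1.50 in adult and -1.54 at E15, a difference of 3.04 and a fold of 8.22. Adora1, the adenosine A1 receptor, was at 0.67 and -0.45 (fold 2.18). Gabbr1, Drd4 and Gpr81, receptors for GABA, dopamine and lactate, differed by no more than 0.12 in size, and P2ry1, a receptor for ADP, by -0.85.

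Among the 11 remaining receptors with a Gpr symbol, most without an agreed ligand, 3 were at least 2-fold higher in adult (all clusters 22.9%). At E15 the count was 0 (all clusters 24.4%). Over all 15 clusters with a Gpr symbol, Gpr56 and Gpr124 of the adhesion role included, the counts were 3 in adult and 2 at E15. Gpr37l1, known from astrocytes and other glia, was at 1.67 in adult and -1.42 at E15, a fold of 8.53. Gpr146 was at 0.80 and -0.70 (fold 2.83), and Gpr75 at 0.63 and -0.62 (fold 2.37). The differences of the other 8 of the 11 ran from -0.64 for Gpr39 to 0.75 for Gpr176.

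Rrh, the gene of peropsin, a retinal-binding opsin first known from the retinal pigment epithelium, had the largest difference toward adult of all members. It was at 1.72 in adult and -1.54 at E15, a difference of 3.26 and a fold of 9.57. In addition, 4 of 9 clusters with olfactory symbols were at least 2-fold higher in adult (44.4%, all clusters 22.9%). These 4 were in the gene-level table, which holds only clusters at least 2-fold different. Olfr1507 was at 1.14 in adult and -0.92 at E15 (fold 4.16), Olfr574 at 1.23 and -0.64 (fold 3.67), Olfr1342 at 0.70 and -0.65 (fold 2.55) and Olfr1348 at 0.55 and -0.47 (fold 2.02). Olfactory receptors form a large and diverse family in which some recent copies are near-identical, so probes may be shared between such copies, and 4 further clusters with olfactory symbols carry another gene too (Flt4, Sall2, Ndufa10 or Stx3), so that their values belong to no single gene. All 4 of these were below 2-fold. The 7 clusters of the role below 2-fold ran from -0.87, for a cluster that Opn3 shares with Chml, to 0.45.

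Among the 7 clusters of G protein subunits, 6 had their higher value at E15, by any amount, as did 54.1% of all clusters. The beta subunit Gnb4 was at -1.18 in adult and 0.89 at E15, a fold of 4.21 and the third largest toward E15, and the gamma subunit Gng2 was at -0.47 and 0.66, a fold of 2.19, and just below 2-fold after re-centring (-0.98). The widely used alpha subunits were below 2-fold. Gnas, the stimulatory subunit, differed by -0.13, Gna11, which acts on phospholipase C, by -0.12, and the inhibitory Gnai2 by -0.82. The gamma subunit Gng3 differed by -0.31. Gnat2, the transducin of cone photoreceptors, was at 0.69 in adult and -0.49 at E15 (fold 2.26), in a cluster it shares with a predicted gene.

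Regulators and partners other than Ramp2 were all below 2-fold and only in the splicing index table. Rgs7bp, an anchor for RGS proteins at the membrane, differed by 0.99, Rgs9 by 0.86 and the exchange factor Arhgef11 by 0.79, all with the higher value in adult. The receptor kinase Adrbk2, now Grk3, differed by -0.64, Grk6 by -0.37, Rgs3 by -0.66 and the arrestin Arrb1 by 0.03. A further 7 members are not receptors, subunits or regulators but carry the annotation. Of these, the potassium channel Kcnk2 was at -0.68 in adult and 0.84 at E15 (fold 2.88), the phosphodiesterase Gde1, known to bind RGS proteins, was at 0.77 and -0.68 (fold 2.74), and the guidance cue Slit2 lay just outside the threshold with a difference of -0.997. The other 4 differed by -0.09 to 0.56.

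Grouped by the G protein that a receptor is best known to use, receptors of every class were found on both sides. Of 5 receptors of the Gs class, 3 were at least 2-fold higher at E15 (Calcrl, Pthr1, Tshr) and 1 in adult (Mc3r). Of 6 of the Gq class, these counts were 3 (Ednra, Ednrb, Agtr1a) and 2 (Cysltr1, Bdkrb1), and of 11 of the Gi class they were 4 (Agtrl1, Cxcr4, Adra2a, C3ar1) and 2 (Adora1, Grm8). Over all clusters these shares were 24.4% at E15 and 22.9% in adult. This grouping was made after the values had been seen, and the classes are too small to read a share from.

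Ligands of the member receptors, or enzymes that make them, were looked up for 29 receptors. Of 48 such genes, 16 were in the joined tables, 5 at least 2-fold higher at E15 (all clusters 24.4%), 4 at least 2-fold higher in adult (all clusters 22.9%) and 7 below 2-fold. These made 23 pairs with a receptor, 12 with the same sign and 11 with opposite signs, several of which share a ligand or a receptor. Among pairs of the same sign, Apln, the ligand of Agtrl1, was at -0.63 in adult and 0.41 at E15 (fold 2.05), and Pthlh, a ligand of Pthr1, was at -0.65 and 0.60 (fold 2.38). Col3a1, the collagen that binds Gpr56, had a fold of 8.81 toward E15, and Flrt1 and Flrt3, membrane proteins that bind latrophilins, had folds of 2.77 and 2.01 toward E15. Flrt2 of the same family differed by 0.14, below 2-fold and opposite in sign to both latrophilins. On the adult side, Ltc4s, the enzyme that makes leukotriene C4, was at 1.89 in adult and -1.93 at E15, a fold of 14.1, beside its receptor Cysltr1, and Nt5e, the ectoenzyme that makes adenosine, had a fold of 2.25 beside Adora1.

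Among pairs of opposite sign, Ace, which makes angiotensin II, was at 0.82 in adult and -0.80 at E15 (fold 3.08) while Agtr1a was higher at E15. Cx3cl1 had a fold of 2.40 toward adult, and Cx3cr1 was below 2-fold with its higher value at E15. Enpp2, the autotaxin that makes lysophosphatidic acid and is abundant in plexus epithelium, differed by 0.88 with the higher value in adult, below 2-fold, while the 4 lysophosphatidic acid receptors were higher at E15. Cxcl12, the endothelins, adrenomedullin and kininogen were in neither table and are not described. Ren1, Ptgs1, Ptges2, Ddc and Wnt7b, which make up the rest of the genes found, were below 2-fold, with differences of 0.68, -0.69, 0.95, -0.60 and -0.30 in that order.

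**Figure D3:**
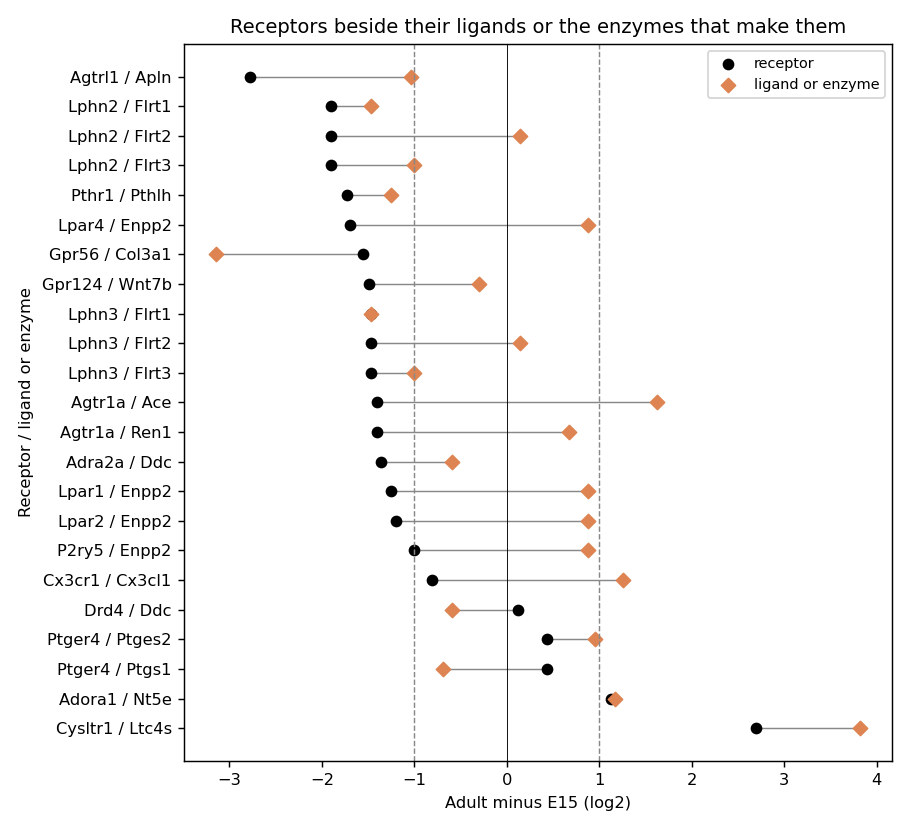
Difference between the ages (adult minus E15, log2) of member receptors (black circles) and of their ligands, or enzymes that make them (orange diamonds), with 1 line for each pair and dashed lines at 2-fold. Agtrl1 with Apln, Pthr1 with Pthlh, Adora1 with Nt5e and Cysltr1 with Ltc4s lie on the same side, and Agtr1a with Ace on opposite sides, and the point of Lphn3 lies under that of Flrt1 in their pair.

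Further genes of the pathway were taken from lists of G protein subunits, RGS proteins, kinases, arrestins, cyclases, phosphodiesterases and second messenger targets. Of 195 genes in these lists, 45 clusters that are no members were in the joined tables, 6 at least 2-fold higher at E15 and 6 at least 2-fold higher in adult, with a median difference of -0.36. This is 13.3% of them in each direction, beside 24.4% and 22.9% of all clusters. Of the 12 phosphodiesterase clusters, 10 had the higher value at E15 by any amount (all clusters 54.1%), and 2 of these passed 2-fold (all clusters 24.4%). Pde3a, which degrades cyclic AMP, had a fold of 2.30, and Pde6c, the cone phosphodiesterase, had 3.33. The regulatory subunit of protein kinase A, Prkar2b, was at -1.50 in adult and 1.22 at E15, a fold of 6.59. Adcy5, an adenylyl cyclase, was at the threshold in the opposite direction with a fold of 2.01, and the cyclic AMP sensor Rapgef4 had a fold of 2.27 toward adult.

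A further list held genes of phospholipase C beta, the protein kinase C family, IP3 receptors and diacylglycerol kinases. Of these, the protein kinase C genes Prkcq (fold 4.22) and Prkcz (3.00) and the IP3 receptor Itpr1 (2.27) were higher in adult. Prkch (2.01), of the same kinase family, was higher at E15. The remaining clusters past 2-fold were Arrdc4 (fold 2.66) and Gnb2l1 (2.21), both higher at E15, and a cluster that Akap2, an anchor of protein kinase A, shares with Palm2 (2.33, higher in adult). The classical RGS genes of the lists that are no members, Rgs12 and Rgs19, were below 2-fold.

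**Figure D4:**
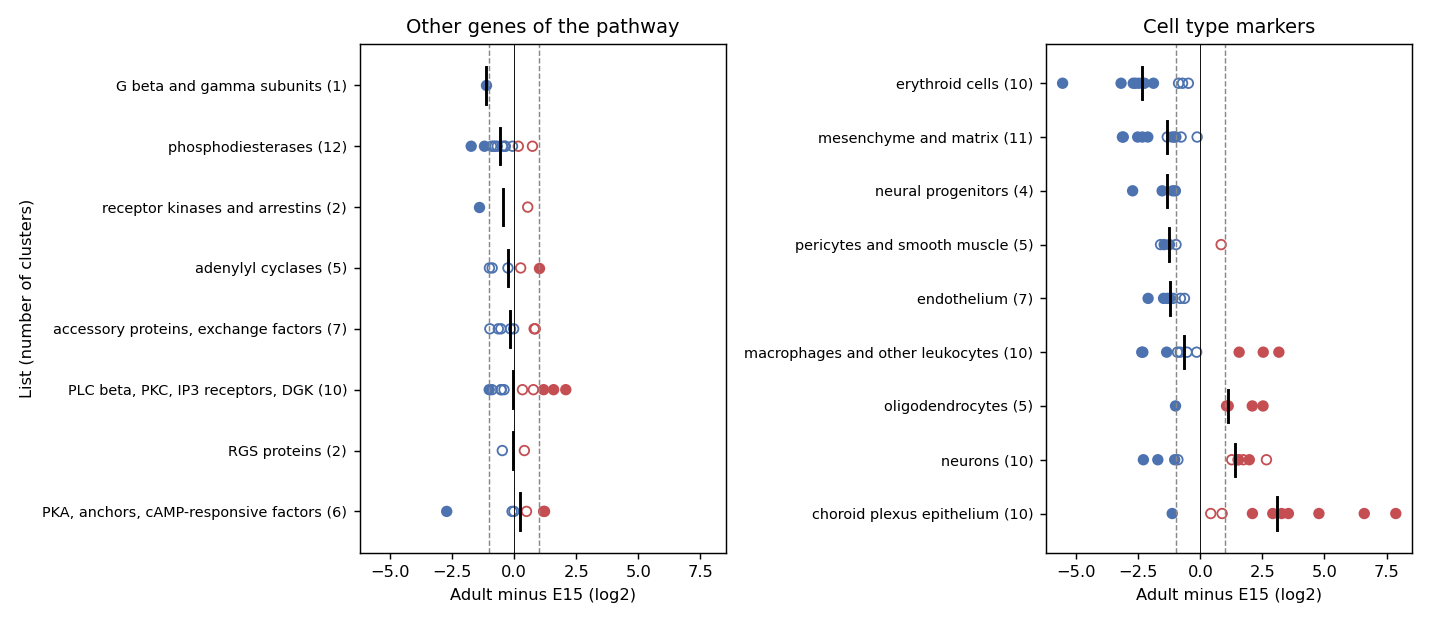
Difference between the ages (adult minus E15, log2) of other genes of the pathway, members left out (left), and of cell type markers (right), with 1 point for each transcript cluster, symbols as in the plot by role. Pathway genes lay on both sides of 0, while the markers of vessels, mesenchyme and blood cells that are in the tables lay mostly toward E15 and those of the plexus epithelium mostly toward adult.

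Markers of the other cells of the plexus moved between the ages as well. All 7 endothelial markers in the tables had their higher value at E15 (of 14 in the list, median difference -1.23, range -2.10 to -0.64), as did all 11 of 15 markers of mesenchyme and matrix (median -1.33, range -3.14 to -0.13) and 4 of the 5 clusters found for 11 markers of pericytes and smooth muscle (median -1.24). These are cells in which Calcrl, Ramp2, Agtrl1, Ednra, Ednrb, Agtr1a and Gpr124 are known to be expressed. All 4 neural progenitor markers found and all 10 erythroid ones were higher at E15. The part of these cells in the differences of the receptors was not tested.

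Neuronal markers were split, with 6 clusters at least 2-fold higher in adult, among them Camk2a and Syt1, and 3 at least 2-fold higher at E15, among them Dcx. Oligodendrocyte markers were higher in adult for 4 of 5 clusters, with a median difference of 1.12. Grm8 and Gpr37l1, higher in adult, are known from neurons and glia, and the part of such cells in their values was not tested. Of 10 clusters for markers of leukocytes, a list that holds the member Cx3cr1, 3 were at least 2-fold higher at E15 (Mrc1, Lyve1, Fcer1g) and 3 in adult, all of MHC class II. Markers of the plexus epithelium itself, Kl, Prlr, Trpv4, F5 and Cldn2 among them, were at least 2-fold higher in adult for 7 of 10 clusters, and Kcne2 was higher at E15. Of the 22 genes of that list, 13, transthyretin among them, had no entry in the tables, which hold only clusters selected for a difference in level or in exon use, so the identity of the tissue cannot be checked by level.

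Of the 37 members in the gene-level table, 25 (67.6%) were also selected by the authors for exon use, as were 67.5% of all its clusters. An ontology entry for "integral to membrane" was found for 64 members (81.0%, all clusters 28.6%), and an entry for the nucleus for 3 (3.80%, all clusters 22.5%). Members were chosen by annotation for membrane-spanning receptors, so these shares largely follow from that choice and are no separate result.

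Start sites of 55 of the 72 members with a single symbol were found in the RefSeq promoter table of the GRCm38.p6 build, 77 starts in all, each with 250 bases before the start and 50 after it. Starts on a single chromosome and windows of any other length were left out beforehand, so "all promoters" below means those kept. No member's promoter held the cyclic AMP response element TGACGTCA, which reads the same on both strands and was found in 1.79% of all 32851 promoters, and this says only that these letters are not in the windows. The TATAAA box was searched for on the gene's strand between 45 and 16 bases before the start. It was found at 4 member starts, those of Cxcr4, Lphn3, Adra2a and Slit2, and at 2.14% of all promoters. Of 26 starts of members at least 2-fold higher at E15 it was found at 3, and of 16 starts of members at least 2-fold higher in adult at 0. CG dinucleotides had a median of 14.5 in the former, 9.5 in the latter and 19 at the 35 starts of members below 2-fold. The median was 15 over all member starts and 7 in all promoters. The 120 bases before the start are shown for the 3 members with the largest difference in each direction that have a single start in the table, 5′ to 3′ on the gene's strand, so that the promoters of genes higher at either age can be read side by side. Capitals mark each CG and the TATAAA box.
Calcrl (higher at E15), chr2:84425267-84425386, minus strand: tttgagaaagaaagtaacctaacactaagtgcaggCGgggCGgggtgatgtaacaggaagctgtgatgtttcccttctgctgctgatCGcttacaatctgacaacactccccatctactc
Cxcr4 (higher at E15), chr1:128592300-128592419, minus strand: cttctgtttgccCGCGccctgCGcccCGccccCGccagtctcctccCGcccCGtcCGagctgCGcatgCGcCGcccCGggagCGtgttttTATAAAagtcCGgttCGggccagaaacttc
Ednra (higher at E15), chr8:77724453-77724572, minus strand: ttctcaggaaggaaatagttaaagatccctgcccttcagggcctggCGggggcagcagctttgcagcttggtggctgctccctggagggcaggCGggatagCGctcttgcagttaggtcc
Rrh (higher in adult), chr3:129822506-129822625, minus strand: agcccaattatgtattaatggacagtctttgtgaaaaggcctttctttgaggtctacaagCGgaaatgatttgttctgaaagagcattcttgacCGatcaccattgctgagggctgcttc
Gpr37l1 (higher in adult), chr1:135167682-135167801, minus strand: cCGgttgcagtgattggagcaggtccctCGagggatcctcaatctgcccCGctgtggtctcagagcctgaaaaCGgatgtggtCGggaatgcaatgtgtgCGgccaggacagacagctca
Mc3r (higher in adult), chr2:172248372-172248491, plus strand: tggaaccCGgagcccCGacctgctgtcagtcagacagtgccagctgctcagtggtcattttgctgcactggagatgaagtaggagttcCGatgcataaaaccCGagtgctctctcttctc

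The stretch shown held 15 CG dinucleotides for Cxcr4, 6 for Gpr37l1, 4 for Mc3r, 3 each for Calcrl and Ednra and 2 for Rrh. Cxcr4, with the densest of these promoters, and Calcrl and Ednra, with sparse ones, were all higher at E15. Only 3 genes a side are shown, chosen for the size of their difference, and no relation of CG content to direction was tested.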

How the data were processed

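RNA of lateral ventricular choroid plexus, 3 pools at E15 and 3 from adults, was hybridised to 6 exon arrays. For the gene-level list the authors used Affymetrix Power Tools and RMA, dropped weakly expressed genes, compared the ages without pairing (corrected p of at most 0.05, 2-fold or more) and deposited 1 log2 value per age and cluster. For the exon-level list they describe PLIER normalization, a detection filter and a splicing analysis, with a minimum index of 0.5. Tool versions and the genome build are not given in the sources used here. The deposited fold change, direction and splicing index are the authors' own comparison and were not used, nor was the third table, which repeats clusters of the others. Values of the 1218 clusters in both tables were identical.

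The tables were joined by cluster, the difference of both columns was taken, and members were counted beside all clusters, with no test, as 0 columns hold values of a single array. Symbols were updated through the RefSeq gene table (GRCm38.p6). Members, lists and roles were chosen with earlier results of these data known, and ligands and G protein classes after the values were seen. Every member at least 2-fold different was named, with the largest of the others in a role. Member finding and counting were tested on simulated data. Alternatives were annotation evidence and column, the excluded terms, single symbols, thresholds of 3-fold and 4-fold, each table alone and re-centring. A count was taken as moved past a factor of 1.5. Python 3.11.15, numpy 2.4.6, pandas 2.3.3 and matplotlib 3.10.9 were used.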

Additional observations from a re-analysis of the deposited data

How the results depend on the processing

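No paired analysis was possible because the columns hold 1 merged value per age. Leaving out a replicate, a stricter adjusted p and a fold taken from the deposited ratio were not run for the same reason or because that column was not used, and the splicing index was not described. No member had a further cluster. Entries not inferred electronically gave 42 members, 13 at least 2-fold higher at E15 and 7 in adult. A 3-fold threshold left 9 at E15 and 8 in adult, and a 4-fold threshold 3 and 6, so the side with more members turned at 4-fold. The gene-level table alone held 37 members, and the splicing index table alone gave 9 at least 2-fold higher in adult. With single-symbol clusters, 0 G protein subunits were at least 2-fold higher in adult, since Gnat2 shares its cluster. Among other pathway genes, a 3-fold threshold left 2 in each direction. Re-centring each age on its median added 0.15 to every difference, reversed 0 of the 38 members past 2-fold, brought 4 of them (F2r, C3ar1, P2ry5 and Gng2) below it and gave 19 members at least 2-fold higher at E15 and 17 in adult.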
